A study of Mus musculus with 4 samples.

Results

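The genes described here are 10 genes of latent TGF-beta activation and reception, chosen by name: the integrin chain genes Itgb6, Itgav and Itgb8, the binding protein gene Ltbp1, the ligand genes Tgfb1, Tgfb2 and Tgfb3, the receptor genes Tgfbr1 and Tgfbr2, and Smad3. They are 10 of the 19935 genes that the platform annotation names alone on a row of the array, and each had 1 row. The choice was made with earlier results of the same comparison known, so their differences between the groups are given as a description, with no test. The study compared hair follicle bulge stem cells from mice given CSA with those from mice given vehicle. In work on calcineurin, CSA stands for cyclosporine A, a drug that inhibits this phosphatase and keeps NFAT transcription factors out of the nucleus; the labels use the abbreviation. All mice were CD-1 males of postnatal day 56, when follicles rest in their second telogen. The CSA mice received 100 mg/kg CSA in the peritoneum and the other mice the vehicle, for 3 days before tissue was taken. No genetic change is given for either group. Sorting on skin cells positive for alpha6 integrin and CD34 gave the population, and the labels leave out how many mice stand behind a sample. There were 2 biological replicates per group, each on 1 array.

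TGF-beta is secreted as a latent complex in which the mature dimer is held by its own propeptide, the latency-associated peptide. Latent TGF-beta binding proteins such as Ltbp1 tie that complex to the matrix. The integrins αvβ6 and αvβ8 bind an RGD motif in the latency-associated peptide of TGF-β1 and TGF-β3 and release or expose the ligand; the peptide of TGF-β2 lacks that motif. The active ligand assembles the type II and type I receptors, and these phosphorylate Smad2 and Smad3. In the follicle, TGF-β1 is known for driving regression of the growing hair, and TGF-β2 from the dermal papilla for helping stem cells become active at the start of a new cycle. αvβ6 is an integrin of epithelia, low in resting skin and induced by wounding.

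Itgb6 and Ltbp1 stood far apart between the groups and in the same direction, and the upstream sequence of both is shown here so that their starts can be compared. The sequences are from RefSeq, assembly GRCm38.p6, 5′ to 3′, and end just before the start, or before the gene's outermost start where that lies further upstream. Capitals mark GGAAA or its reverse complement TTTCC, the core letters of NFAT sites, and CAGAC or its reverse complement GTCTG, the core letters of SMAD sites; no matches overlap. The Itgb6 stretches are chr2:60722604-60722853 and, for a start further downstream, chr2:60673694-60673943, both on the minus strand. The Ltbp1 stretches are chr17:75005279-75005479 and, for a start further downstream, chr17:75178531-75178780, both on the plus strand.
Itgb6 upstream start: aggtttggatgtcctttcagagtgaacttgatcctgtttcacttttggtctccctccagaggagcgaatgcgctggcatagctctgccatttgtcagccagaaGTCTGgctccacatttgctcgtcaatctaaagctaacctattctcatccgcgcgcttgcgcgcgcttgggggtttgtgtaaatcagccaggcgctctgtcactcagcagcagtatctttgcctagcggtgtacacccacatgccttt
Itgb6 downstream start: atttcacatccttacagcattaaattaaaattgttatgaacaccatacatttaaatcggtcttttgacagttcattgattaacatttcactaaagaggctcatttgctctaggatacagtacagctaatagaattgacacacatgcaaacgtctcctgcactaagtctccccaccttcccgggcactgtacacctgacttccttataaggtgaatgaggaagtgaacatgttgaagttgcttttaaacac
Ltbp1 upstream start: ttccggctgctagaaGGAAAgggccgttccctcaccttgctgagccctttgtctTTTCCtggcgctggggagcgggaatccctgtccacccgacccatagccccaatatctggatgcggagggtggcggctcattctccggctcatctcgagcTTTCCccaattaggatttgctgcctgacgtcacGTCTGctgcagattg
Ltbp1 downstream start: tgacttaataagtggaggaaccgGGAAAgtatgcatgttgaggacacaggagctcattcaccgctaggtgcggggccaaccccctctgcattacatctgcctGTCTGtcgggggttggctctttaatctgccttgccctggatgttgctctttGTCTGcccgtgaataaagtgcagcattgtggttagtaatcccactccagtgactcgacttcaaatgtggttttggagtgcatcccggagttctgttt

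The upstream start of Itgb6 held 1 SMAD core and 0 NFAT cores, and its downstream start 0 of either. The upstream start of Ltbp1 held 3 NFAT cores and 1 SMAD core, and the downstream start 1 and 2. The annotation of the Itgb6 and Ltbp1 rows does not assign them to either start. In full windows of 300 bases (250 before to 50 after a start, both strands searched), 9 of the 10 genes matched the RefSeq table with 12 windows, and Tgfb3 had no entry. The NFAT core was in 5 of these 12 windows and the SMAD core in 7. Of all 32851 windows of that length 61.3% held the NFAT core and 49.6% the SMAD core, so letters this short are common. At least 3 NFAT cores were in 9.42% of all windows, and at least 2 SMAD cores in 16.2%. The single Itgav window held neither. A match is a description of the letters and not evidence of binding.

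Values are those of the authors' deposited table, on a log scale taken as log2, with every row centred on an unknown baseline. A value is a distance from that baseline and holds no abundance, so levels are compared between arrays and never between genes. Array medians lay between -0.02 and 0.06 over 28815 rows. The arrays CSA replicate 2 and vehicle replicate 2 correlated across rows (Pearson r 0.516; rows are not independent replicates), and the other pairs 0.02 to 0.168. In RNA of a sorted population, fewer cells of a type and less RNA per cell cannot be told apart. limma called 0 of 28815 rows at an adjusted p under 0.05 (0%), and 845 rows had an unadjusted p under 0.05. That is fewer than the share of 0.05 expected if no row differed. Rows were therefore also counted where the group means lay at least 1.5-fold apart and the arrays of the groups did not overlap.

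By that count 3 of the 10 genes were lower in CSA and 0 were higher. Of all rows, 5.57% met it, 1.96% as lower and 3.62% as higher in CSA. Because the genes were chosen from this comparison, nothing is read from the difference between those shares. The 3 genes were Itgb6, Ltbp1 and Itgav, which encode an integrin pair and a carrier of latent TGF-beta. None of the ligand genes, the receptor genes or Smad3 was among them.

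**Figure D1:**
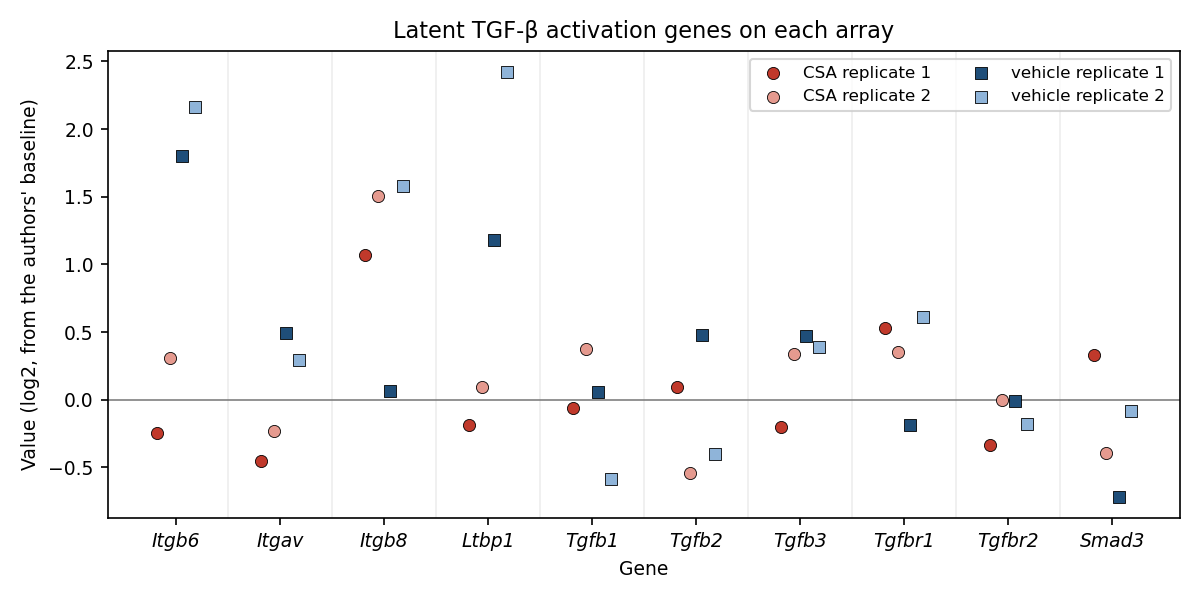
Values of the 10 genes on each array, in log2 units from the authors' baseline, with CSA arrays as circles and vehicle arrays as squares. Itgb6 and Ltbp1 lay near 0 on both CSA arrays and above 1.1 on both vehicle arrays, while most of the other genes overlapped between groups.

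Itgb6, the β subunit that pairs only with αv, was at -0.24 and 0.31 with CSA and at 1.80 and 2.17 with vehicle. Both vehicle arrays were high and both CSA arrays lay close to the baseline, with 1.49 between the nearest arrays of the groups. Its difference (CSA minus vehicle, log2, as for all differences here) was -1.95 ± 0.27 (every ± here is limma's moderated standard error, with 2 arrays in each group), or 3.87-fold lower in CSA. It ranked 24th lowest of 28815 rows, and 0.149% of rows differed at least as far in either direction. Because the genes were chosen with this comparison known, this rank and share, and the rank of Ltbp1 below, are descriptions only.

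Itgav, which encodes the αv chain shared by several β subunits, was at -0.45 and -0.23 with CSA and at 0.49 and 0.30 with vehicle. The groups did not overlap, and the arrays within a group lay 0.22 apart in CSA and 0.20 in vehicle. Its difference of -0.74 ± 0.17 was 1.67-fold, less than that of Itgb6, and its pooled SD within groups of 0.15 was the smallest of the 10 genes. Both partners of αvβ6 were thus lower on both CSA arrays.

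Itgb8, the β subunit of the other αv integrin that activates latent TGF-beta, was at 1.07 and 1.502 with CSA and at 0.06 and 1.58 with vehicle. Vehicle replicate 1 stood alone near the baseline, and the other 3 arrays lay well above it. The difference of 0.46 ± 0.58 turned to -0.30 when vehicle replicate 1 was left out. The groups overlapped, so these arrays give Itgb8 no direction.

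Ltbp1, which binds the latency-associated peptide and anchors the latent complex in the matrix, was at -0.19 and 0.10 with CSA and at 1.18 and 2.42 with vehicle. Both CSA arrays lay at the baseline, and the vehicle arrays, though 1.24 apart, were both above them. Its difference was -1.85 ± 0.48, or 3.59-fold lower in CSA, the 32nd lowest of all rows. Leaving out vehicle replicate 2, where Ltbp1 was highest, gave -1.23, and leaving out vehicle replicate 1 gave -2.47.

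The ligand genes did not share a direction. Tgfb1, which encodes a ligand with the RGD motif in its propeptide, was at -0.06 and 0.37 with CSA and at 0.06 and -0.58 with vehicle, a difference of 0.42 ± 0.31. Its groups overlapped, and vehicle replicate 2 was the lowest array; without it the difference was 0.10. Tgfb2 was at 0.10 and -0.54 with CSA and at 0.48 and -0.40 with vehicle, a difference of -0.26 ± 0.41. The arrays within each group of Tgfb2 lay further apart (0.64 and 0.88) than the group means. Leaving out vehicle replicate 1 turned the difference to 0.18, and leaving out CSA replicate 2 to 0.06.

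Tgfb3, which also carries the RGD motif, was at -0.20 and 0.33 with CSA and at 0.47 and 0.39 with vehicle. Its groups did not overlap, as for 26.6% of all rows, but only 0.05 parted the nearest arrays. The difference was -0.36 ± 0.23, below the 1.5-fold limit, and it was -0.10 without CSA replicate 1 and -0.63 without CSA replicate 2. In all, 4 of the 10 genes did not overlap between groups, each of them lower in CSA.

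Of the receptors, Tgfbr1, the type I kinase that phosphorylates Smads, was at 0.53 and 0.36 with CSA and at -0.18 and 0.61 with vehicle. The vehicle arrays lay on either side of the CSA arrays. The difference of 0.23 ± 0.32 was -0.17 without vehicle replicate 1. Tgfbr2, the type II receptor that binds the ligand first, was at -0.34 and 0.00081 with CSA and at -0.0075 and -0.18 with vehicle. Its difference of -0.08 ± 0.19 was within the spread of the arrays, and leaving out CSA replicate 1 or vehicle replicate 1 gave 0.094 or 0.01.

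Smad3, the transcription factor that carries the signal to the nucleus, was at 0.33 and -0.39 with CSA and at -0.72 and -0.08 with vehicle. The groups overlapped and the difference of 0.37 ± 0.37 equalled its standard error. Leaving out either array numbered 1 gave 0.01 (CSA) or 0.05 (vehicle), and leaving out either numbered 2 gave 0.73 (CSA) or 0.69 (vehicle). The differences of the 6 genes whose groups overlapped ran from -0.26 to 0.46. The median pooled SD within groups was 0.40 for the 10 genes and 0.21 for all rows, so 8 of the 10 were more variable between replicates than the median row.

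**Figure D2:**
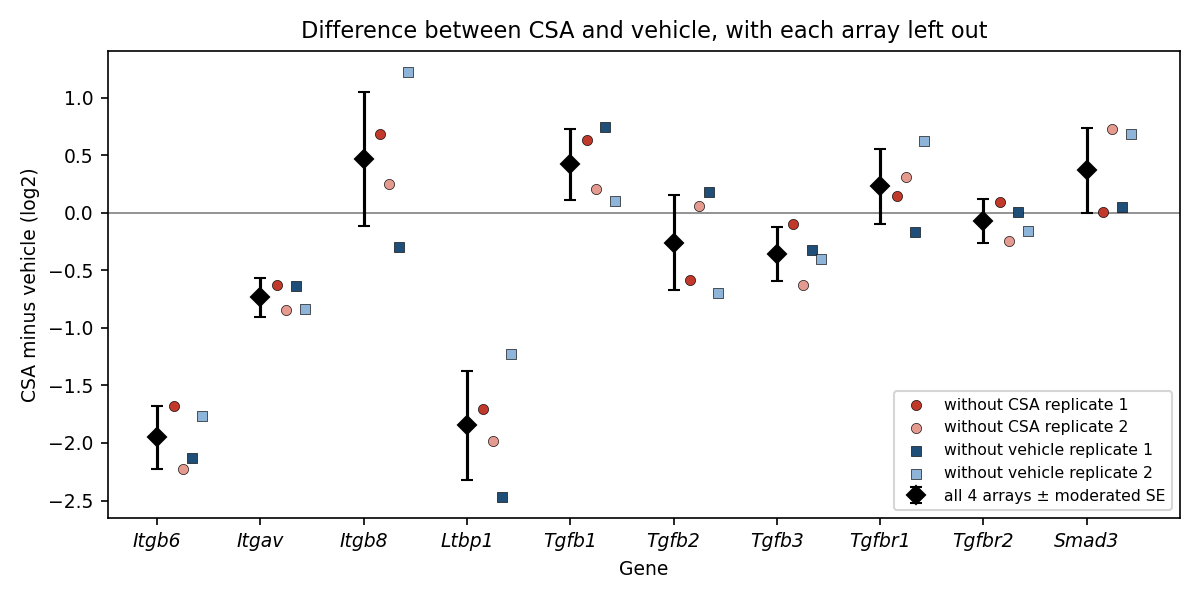
Differences between CSA and vehicle in log2 units for each gene, with all 4 arrays (diamonds, bars are moderated standard errors) and with each array left out in turn. With an array left out, Itgb6, Itgav and Ltbp1 run from -2.23 to -1.67, -0.85 to -0.63 and -2.47 to -1.23. The groups of these genes and of Tgfb3 do not overlap, so leaving out an array cannot turn their sign. Tgfb1 and Smad3 also keep their sign, and Itgb8, Tgfb2, Tgfbr1 and Tgfbr2 change it.

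The other genes of the pathway were taken from 4 lists, which like the 10 genes were put together with earlier results known. By limma 0 rows of any list passed an adjusted p of 0.05. Over all rows the median difference was -0.04, and 57.9% of rows were lower in CSA.

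Among other carriers and activators of latent TGF-beta, 11 of 16 measured genes were lower in CSA and 5 higher, with a median of -0.06. Without vehicle replicate 1 only 6 were lower and the median was 0.050. The 1.5-fold count held 1 lower and 1 higher gene. Thbs1 encodes thrombospondin 1, a matrix protein that can activate latent TGF-beta. It was at -1.11 and 0.15 with CSA and at 0.36 and 0.33 with vehicle (-0.83 ± 0.47). CSA replicate 1 alone was far below the rest, and without it the difference was -0.20. The gelatinase gene Mmp2 was at 1.92 and 1.09 with CSA and at 0.68 and 1.06 with vehicle (0.64 ± 0.35). The second CSA array lay just above the vehicle arrays, and leaving out CSA replicate 1 or 2 gave 0.22 or 1.06. Ltbp2, of the same family as Ltbp1, was at 0.20 and 0.54 with CSA and at 0.17 and 2.02 with vehicle. Only vehicle replicate 2 was high, and the difference of -0.72 ± 0.68 was 0.20 without it. Ltbp3 differed by -0.17 ± 0.41 and Ltbp4 by 0.01 ± 0.29. Of the 4 family members the groups did not overlap for Ltbp1 alone. As 26.6% of all rows did not overlap either, nothing is read from that count.

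The other integrin chains that bind RGD ligands were closer to the baseline, 5 of 6 within 0.5 of it on all arrays. Of the 6, 4 were lower and 2 higher in CSA (median -0.11, and 0.039 without vehicle replicate 1), and 0 met the 1.5-fold count. Itgb5, another β partner of αv, was at 0.46 and 0.22 with CSA and at -0.37 and -0.07 with vehicle, a difference of 0.56 ± 0.19 opposite in sign to those of Itgav and Itgb6. Itgb1, the β chain of most matrix integrins, was at -0.10 and -0.15 with CSA and at 0.38 and 0.28 with vehicle (-0.45 ± 0.14). The groups did not overlap for Itgb5 or Itgb1, and both differences fell short of the 1.5-fold limit. Itga5, the α chain of the fibronectin receptor, differed by -0.22 ± 0.21.

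Among receptors, Smads and regulators, 11 of 18 rows of 17 genes were higher in CSA and 7 lower (median 0.09). Without CSA replicate 1, 9 were higher and 9 lower, with a median of 0.00028. The 1.5-fold count held 3 genes, each higher in CSA. Skil, a Smad co-repressor that TGF-beta itself induces, was at 1.33 and 0.30 with CSA and at -0.08 and 0.08 with vehicle (0.82 ± 0.40). Ppm1a, a phosphatase that acts on phosphorylated Smad2 and Smad3, was at 0.75 and 0.11 with CSA and at -0.52 and -0.09 with vehicle (0.74 ± 0.30). Tgfbr3, the co-receptor betaglycan, was at 0.27 and -0.71 with CSA and at -0.79 and -0.96 with vehicle (0.65 ± 0.38). In all 3 CSA replicate 1 was the highest array. Without it the differences were 0.30 for Skil, 0.42 for Ppm1a and 0.17 for Tgfbr3, all below the 1.5-fold limit. The inhibitory Smad gene Smad7 was at 0.11 and 0.72 with CSA and at 0.61 and 0.20 with vehicle, with the groups overlapping.

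Genes that TGF-beta is known to induce went both ways, 13 of 21 lower and 8 higher in CSA (median -0.09), and the 1.5-fold count held 2 lower genes and 1 higher. The median was 0.011 without vehicle replicate 1, 0.087 without CSA replicate 2 and -0.30 without CSA replicate 1. This list shares Ltbp2 with the carriers and Smad7, Skil and Pmepa1 with the regulators. Tnc encodes tenascin-C, a matrix ligand of αvβ6. It was at -0.24 and 0.76 with CSA and at 1.16 and 2.27 with vehicle, a difference of -1.45 ± 0.55. Both vehicle arrays were above both CSA arrays. Leaving out CSA replicate 1 gave -0.95, and leaving out vehicle replicate 2 gave -0.90. Postn, which encodes the matrix protein periostin, was at 0.35 and 0.53 with CSA and at 1.13 and 1.33 with vehicle (-0.79 ± 0.16), and it lay between -0.89 and -0.69 with any array left out. Bhlhe40, a transcription repressor, was at 0.35 and -1.74 with CSA and at -1.80 and -1.57 with vehicle. Only CSA replicate 1 was high, and the difference of 0.99 ± 0.77 was -0.05 without it. Ccn2, a matricellular growth factor gene often used as a readout of TGF-beta, was at 2.06 and 0.82 with CSA and at 1.81 and 2.06 with vehicle, with the groups overlapping.

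**Figure D3:**
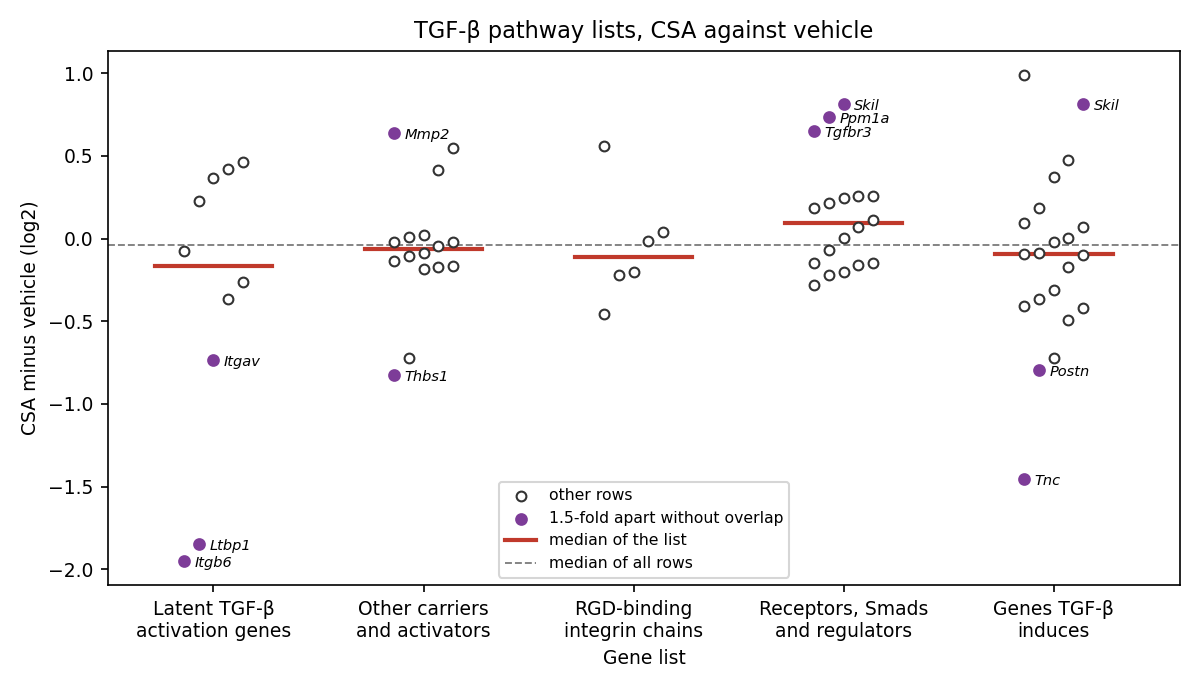
Differences between CSA and vehicle in log2 units for every row of the 10 genes and of the 4 pathway lists, with list medians as red bars, the median of all rows as a dashed line, and rows at least 1.5-fold apart without overlap filled and named. Itgb6, Ltbp1 and Tnc are the rows below -1, and the 3 filled regulators lie above 0.

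Patterns most like those of Itgb6 and Ltbp1 were sought among the named rows by Euclidean distance over the 4 arrays, after each row's own mean was subtracted. Nearest to Itgb6 were Asrgl1 (distance 0.166), Thsd1 (0.465), Hmcn1 (0.528), Il31ra (0.58) and Cd44 (0.597). Hmcn1 encodes the matrix protein hemicentin 1, Il31ra a cytokine receptor chain and Cd44 the hyaluronan receptor. Cd44 was at -1.27 and -0.97 with CSA and at 0.18 and 0.37 with vehicle, a difference of -1.39 ± 0.18. Nearest to Ltbp1 were Igfbp7 (0.268), Cpa4 (0.356), Abhd12b (0.398), Fggy (0.437) and Cdh13 (0.607). Igfbp7 encodes a secreted insulin-like growth factor binding protein and Cdh13 the anchored cadherin 13. Igfbp7 was at -0.31 and 0.09 with CSA and at 1.04 and 2.61 with vehicle, with vehicle replicate 2 highest as for Ltbp1. Itgb6 and Ltbp1 lay 0.654 from each other, and 6 other rows were nearer to Itgb6. With 4 arrays such nearness is a description only.

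Markers of the sorted and of other cell types were also read. A distance from an unknown baseline cannot show how pure the sort was. Of 10 bulge and basal genes 7 lay above the baseline on all 4 arrays, and the basal keratin genes Krt5 and Krt14 and the integrin gene Itga6 did not. Of the 10, 7 were lower and 3 higher in CSA (median -0.21, and 0.11 without CSA replicate 1). Of the genes whose proteins were used for the sort, Cd34 was at 1.75 and 3.60 with CSA and at 4.05 and 4.25 with vehicle. Its difference was -1.47 ± 0.68, and -0.55 without CSA replicate 1. Cd34 was the 1 gene of this list that met the 1.5-fold count, as lower in CSA. Itga6 was at -0.70 and -0.53 with CSA and at -0.9995 and 0.08 with vehicle, below the baseline on 3 of 4 arrays. The list's mean was lowest on CSA replicate 1 (0.39, against 0.84 to 1.28 on the other arrays). Without CSA replicate 1 the difference of Itgb6 was -1.67, of Ltbp1 -1.70 and of Itgav -0.63. Markers of differentiated epidermis outside the follicle were lower in CSA for 7 of 7 genes, and all 7 were highest on vehicle replicate 1. The 1.5-fold count held 4 of the 7: Flg2 (-1.77 ± 0.89), Krt1 (-1.49 ± 0.83), Krt10 (-1.02 ± 0.40) and Ivl (-0.81 ± 0.27), genes of the suprabasal layers and the cornified envelope. The CSA arrays had list means of -0.999 and -0.71, and the vehicle arrays 0.87 and -0.62. Without vehicle replicate 1 the median difference of the list was -0.36 in place of -0.81, with Flg2 at -0.61 and Ivl at -0.59, and Lor and Krtdap were higher in CSA (0.47 and 0.071). Without the same array the difference of Itgb6 was -2.13, of Ltbp1 -2.47 and of Itgav -0.64. The groups of these 3 genes do not overlap, so leaving out either array could not turn their signs. Fibroblast, endothelial, immune and melanocyte markers lay within 0.5 of the baseline on all arrays for 8 of 8, 5 of 6, 5 of 6 and 6 of 6 genes. Of these, 7, 6, 5 and 3 were lower in CSA, with means over the CSA arrays from -0.33 to 0.07 and over the vehicle arrays from -0.35 to 0.23. Vehicle replicate 1 was also the highest array for 5 of 8 fibroblast, 5 of 6 endothelial, 6 of 6 immune and 0 of 6 melanocyte genes. No marker can be called absent on a centred scale. The part of these cell types in the differences of the 10 genes was not tested.

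**Figure D4:**
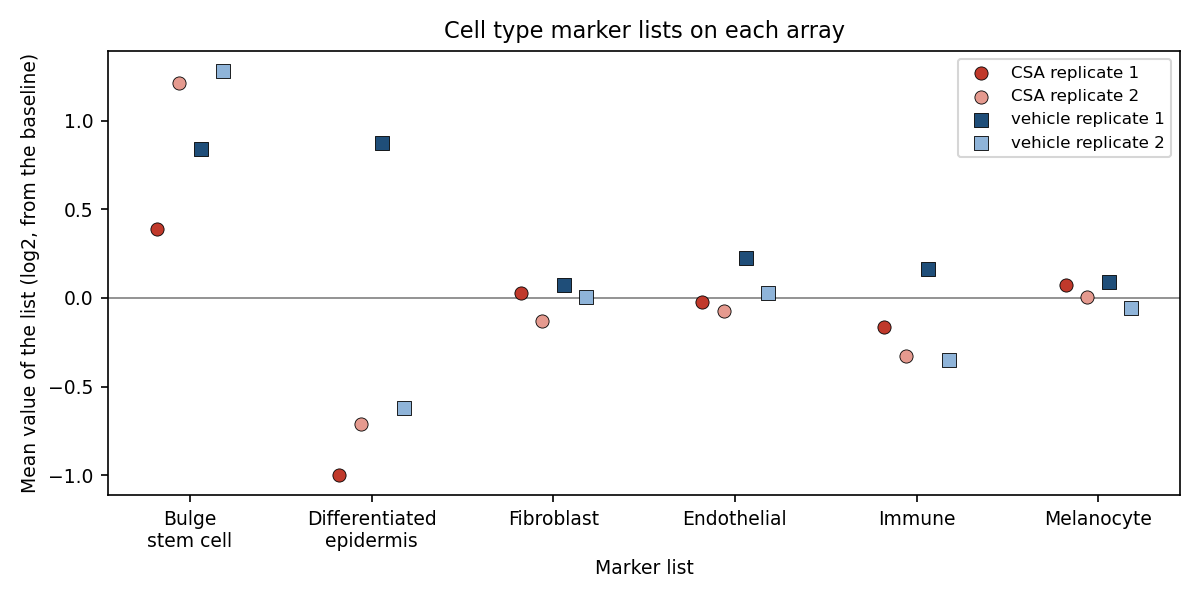
Mean value of each cell type marker list on each array, in log2 units from the authors' baseline, with CSA arrays as circles and vehicle arrays as squares. The differentiated epidermis list stands at 0.87 on vehicle replicate 1 and below -0.6 on the other 3 arrays, and the bulge list is lowest on CSA replicate 1.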

How the data were processed

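RNA of sorted bulge cells (2 CSA and 2 vehicle samples) was hybridised to one-colour arrays after 1 round of amplification from 20 ng, per the labels' protocols. The authors deposited 28815 rows of log values, taken here as log2, centred per row on an unstated baseline. Their normalization is not stated in what was used here; the submitters' notes name the build mm8. Precision is limited by having 4 arrays.

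The platform annotation named 1 gene for 21780 rows, several for 1605 and none for 5430; only the first kind is named. CSA and vehicle were compared with limma 3.58.1 in R 4.3.3 (lmFit, eBayes without trend, no block or filter), two-sided, with Benjamini-Hochberg adjustment over all rows; the code was tested on simulated data. Alternatives left out each array and varied normalization, centring, trend, filter, rows per gene, block and fold limit.

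The 10 genes and all lists were chosen with earlier results of these data known. Also named were the 3 largest differences of each list, the 5 genes nearest to Itgb6 and to Ltbp1, and defining markers. Ltbp3, Ltbp4, Smad7, Pmepa1, Postn and Ccn2 were added after their values were seen. Fbn1, Cdkn1a and Flg lacked a row of their own and were not analysed here.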

Additional observations from a re-analysis of the deposited data

How the results depend on the processing

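Of 198 values recomputed under the alternatives, 182 were counted as the same, 10 moved further, and 6 differences of genes turned sign. The same meant a move under 1 SD between replicates with no gene's sign turned or, for counts, at most 1.5 times. For variable genes that SD is large. The count says little about the genes. A trend, the filter, 1 row per gene or the block cannot change a gene's difference. Leaving out 1 of 2 arrays cannot move it by more than that SD. Quantile normalization and centring arrays on their medians turned the sign of none of the 10 genes. limma called 0 rows under every alternative that kept all arrays. Rows at least 1.5-fold apart without overlap numbered 1606, 889 when rows with a mean under the 25th percentile were left out, 488 at 2-fold, and 2184 to 4553 with an array left out, since 1 array against 2 overlaps less often. That filter also removed Tgfb2, Tgfbr2 and Smad3. With an array left out the differences ran from -0.30 to 1.22 for Itgb8, -0.70 to 0.18 for Tgfb2, -0.17 to 0.63 for Tgfbr1, -0.24 to 0.094 for Tgfbr2, 0.10 to 0.74 for Tgfb1, -0.63 to -0.10 for Tgfb3 and 0.01 to 0.73 for Smad3. List medians ran from -0.10 to 0.050 for carriers and activators (6 to 11 rows lower), -0.29 to 0.039 for RGD-binding chains, 0.00028 to 0.14 for regulators (7 to 9 rows lower) and -0.30 to 0.087 for induced genes. With the replicate number as a block limma called 0 rows, and 1366 had an unadjusted p under 0.05 against 845 without the block. Both are fewer than the share of 0.05 expected if no row differed. Deviations of same-numbered arrays correlated at 0.216 across rows; with 2 pairs and no label that a number marks a batch, the numbers were not taken to pair the samples.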
